A study of Mus musculus with 19 samples.

Results

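In wild-type male hybrids between B6 (C57BL/6J) and SPRT (SPRET/EiJ, *Mus spretus*), 328 autosomal hotspots controlled by the B6 allele of PRDM9 were cut mainly on the B6 chromosome. They were chosen by the DMC1 values themselves, as hotspots attributed to the B6 allele at which over 75% of the SNP-carrying DMC1 reads came from the B6 chromosome. They were 328 of the 2541 autosomal B6-allele hotspots with such a fraction, and of 4122 autosomal B6-allele hotspots in all. The table of this genotype listed 18522 autosomal hotspots, and the 5 tables of the series listed 74327 hotspots together.

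PRDM9 is the histone methyltransferase that positions meiotic recombination. Its zinc fingers bind a DNA motif, it marks the neighbouring nucleosomes with H3K4me3, and double-strand breaks (DSBs) then form close by. DMC1 coats the single-stranded DNA of the resected break, so that DMC1 single-stranded DNA sequencing (SSDS) maps the cut chromosome. Because the intact motif is cut and repaired from the homolog, a PRDM9 allele tends to lose its strongest binding sites on the chromosomes it has evolved with. This is why B6-allele hotspots in a hybrid are usually cut on the foreign homolog, and the 328 hotspots lie on the other side.

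The B6/SPRT genotype carries 1 wild-type B6 and 1 wild-type SPRT copy of *Prdm9*, in the testis of adult males from B6 mothers and SPRT fathers. It had 1 DMC1 SSDS library, with 2 H3K4me3 ChIP and 2 input samples whose values appear as 1 column each. The other genotypes used here had 1 DMC1 library each. STUS/B6 carries the B6 allele with that of the wild-derived strain STUS/Jpia (*M. musculus musculus*). The sample labels write this cross as B6xSTUS, whereas the paper names the hybrid STUSB6F1, so which strain was the mother is not certain here. In Hum/SPRT, STUS/Hum and CAST/SPRT the B6 copy of *Prdm9* was engineered, on the B6 background, to the human B allele or to the zinc finger array of *M. m. castaneus*. With 1 value per hotspot and genotype there was no replicate error, hotspots are not replicates of a hybrid, and no test between genotypes or classes of hotspot was made. The intervals given are 95% Wilson intervals and cover counting error only.

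The sequence at a hotspot was read from RefSeq promoters of GRCm38.p6, the reference of the B6 strain, and so of the chromosome that is cut here. Among the promoters at hand, which did not cover every gene, a window lay within 500 bp of the center of 2 of the 328 hotspots. Both are shown because the hotspots called within 500 bp of them in the STUS/B6 hybrid differed in the homolog cut. Each is the 250 bases before a transcript start of a long noncoding RNA gene, on the plus strand, 5′ to 3′.
Gm36841 promoter, chr5:116406430-116406679: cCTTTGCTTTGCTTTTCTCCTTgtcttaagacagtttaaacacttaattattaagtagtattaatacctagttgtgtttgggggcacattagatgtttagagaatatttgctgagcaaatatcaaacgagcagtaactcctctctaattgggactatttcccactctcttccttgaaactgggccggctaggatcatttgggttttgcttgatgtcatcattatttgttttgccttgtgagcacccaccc
Gm46165 promoter, chr1:154103613-154103862: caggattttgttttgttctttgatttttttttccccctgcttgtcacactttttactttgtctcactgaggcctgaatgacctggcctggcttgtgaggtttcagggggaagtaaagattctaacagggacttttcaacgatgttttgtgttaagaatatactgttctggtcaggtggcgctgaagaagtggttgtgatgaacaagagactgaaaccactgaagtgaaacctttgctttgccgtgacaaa

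Capitals in the Gm36841 promoter mark the center of the hotspot, at position 116406441 of chromosome 5, with 10 bases on either side. RefSeq gives Gm46165 several transcript starts, and the one shown lies inside the gene. The hotspot center, at position 154104000 of chromosome 1, is 137 bp past that start and so outside the bases printed. Both hotspots were cut on B6 in B6/SPRT. At Gm36841 100% of DMC1 reads and 93.2% of 311 H3K4me3 reads came from the B6 chromosome, with a weak DMC1 signal of 11.2. The Gm46165 hotspot had 99.5% of DMC1 reads and 97.3% of 595 H3K4me3 reads from B6, and its DMC1 signal was 79.2. In the STUS/B6 hybrid the hotspot called within 500 bp of the Gm36841 center was cut on both homologs, with 60% of reads from B6. The one at Gm46165 was cut on B6, with 99.8%. The STUS/B6 center lay 225 bp from the B6/SPRT center at Gm36841 and 10 bp from it at Gm46165. The hotspots compared at Gm36841 therefore need not be the same binding site. The GC content of the bases printed was 39.2% for Gm36841 and 42.4% for Gm46165.

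The 328 hotspots were 12.9% of the B6-allele hotspots with a fraction (95% interval 11.7 to 14.3%). Hotspots cut mainly on the SPRT chromosome (under 25% of reads from B6) numbered 1564, or 61.6%, and 649 (25.5%) were matched, with 25 to 75% of reads from B6. Weighted by DMC1 signal, the hotspots cut on B6 held 5.57% of the signal of the 2541. Within the chosen range the fractions were mostly extreme. The median was 95.9%, 242 of the 328 exceeded 90%, and at 66 every SNP-carrying DMC1 read came from B6. The number of DMC1 reads behind a fraction is unknown. Just inside the limit lay a hotspot within *Csmd2* with 75.5% and one within Gm39843 with 76.9%. Just outside it were hotspots within *Pard3b* and *Rnf145*, both with 75%, and within *Hdac9* with 74.6%. Their H3K4me3 fractions overlapped across the limit. Inside it they were 61.9 and 75.2% in the same order, and outside it 76.6, 78.6 and 62.4%.

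Hotspots cut on B6 were weak. DMC1 signal, in the unit of the authors' caller, ran from 7.53 to 360 with a median of 20.4 (quartiles 14.0 and 36.9). The median was 23.9 at matched hotspots and 63.0 at those cut on SPRT, and 54.5 over all autosomal hotspots. Their share of the B6-allele hotspots was higher among weak ones. Among the 635 weakest, with signals from 7.50 to 19.2, it was 23.3% (148 hotspots, interval 20.2 to 26.8%). In the next 2 groups of 635 it was 17.0% and 8.98%, and among the 636 strongest, from 102 to 729, it was 2.36% (15 hotspots, interval 1.43 to 3.85%). The first and last intervals did not overlap.

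H3K4me3 enrichment over input, the mark of PRDM9 binding, was also lower at the hotspots cut on B6. Its median was 4.68 (quartiles 3.11 and 6.82), against 5.74 at matched hotspots, 6.03 at those cut on SPRT and 6.25 over all autosomal hotspots. ChIP coverage in the 1000 bp window had medians of 93.5, 119 and 128 reads in the order cut on B6, matched, cut on SPRT. Input coverage had medians of 18, 19 and 18 reads.

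Relative to H3K4me3, DMC1 signal at hotspots cut on B6 was below that at hotspots cut on SPRT, while its order against matched hotspots differed with the strength of binding. The ratio of DMC1 signal to enrichment had a median of 4.86 (quartiles 3.34 and 8.31) when cut on B6, 4.81 when matched and 11.2 when cut on SPRT. The B6-allele hotspots were split into 3 bands of enrichment with equal numbers, and in the middle band, from 4.39 to 7.54, the median DMC1 signal was 21.1 at 110 hotspots cut on B6, 24.6 at 196 matched ones and 65.5 at 541 cut on SPRT. In the highest band the medians were 39.3 (70 hotspots), 58.5 (233) and 132 (544). In the lowest band they lay closer together, at 16.4, 15.3 and 26.9.

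**Figure D1:**
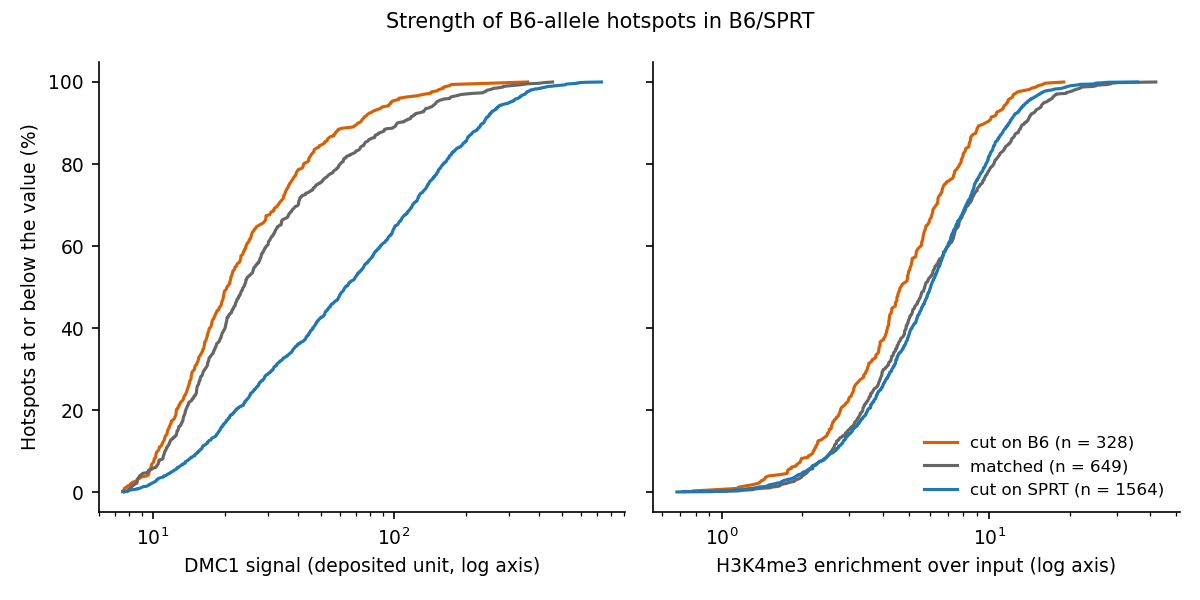
Cumulative share of B6-allele autosomal hotspots in B6/SPRT (%) against DMC1 signal (left) and H3K4me3 enrichment over input (right), both on log axes, with 1 line for each class. The line of the hotspots cut on B6 (median DMC1 signal 20.4) runs close to that of matched hotspots (23.9) and far from that of hotspots cut on SPRT (63.0), while for enrichment it lies to the left of both others (median 4.68 against 5.74 and 6.03).

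The H3K4me3 reads come from libraries other than those that chose the hotspots, and they too came mostly from the B6 chromosome. The median H3K4me3 fraction from B6 at the 328 hotspots was 83.5% (quartiles 74.0 and 90.5%), against 55.2% at matched hotspots and 21.8% at those cut on SPRT. It exceeded 75% at 240 of them (73.2%), among these 90% at 89, and lay between 25 and 75% at the remaining 88. The fractions rested on a median of 158.5 SNP-carrying reads per hotspot. An exact binomial test of each hotspot against a share of 50%, 2-sided, with Benjamini-Hochberg adjustment over 18432 autosomal hotspots, called more reads from B6 at 315 of the 328 (96.0%). Over all autosomal hotspots 53.7% were called in this direction. The call was made at 252 of 649 matched hotspots (38.8%) and at 17 of 1564 cut on SPRT (1.09%). Fewer reads from B6 were called at 1 of the 328, against 24.7% over all autosomal hotspots. The test covers counting error in the combined libraries, and not the spread between mice.

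Hotspots that do not depend on PRDM9 gave a second reference share. At the 31 autosomal hotspots marked KO (PRDM9-independent) with an H3K4me3 fraction, the median from B6 was 65.4% (quartiles 52.9 and 74.3%). Over all 50 KO hotspots, including those without a fraction, the median was 18 reads. By DMC1, the 13 KO hotspots with a fraction also leaned to B6, with a median of 94.4% (quartiles 70 and 100%, lowest 22.7%). Over all 13732 autosomal hotspots with a DMC1 fraction the median was 66.7%. Whether such a lean enters the DMC1 fractions of the 328 was not tested. Tested against that share by the same exact test, 247 of the 328 hotspots (75.3%) were called with more reads from B6 and 9 with fewer, against 32.9% and 46.7% of all autosomal hotspots. SNP-carrying reads also outnumbered the ChIP coverage of the window at 97.3% of the 328 hotspots (94.9% of all autosomal hotspots), so what they count is uncertain. If reads of 1 molecule were counted more than once, the binomial p-values are too small.

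DMC1 was more one-sided than H3K4me3. The DMC1 fraction was the larger at 307 of the 328 hotspots, by a median of 11.0 percentage points, but the hotspots were chosen for a high DMC1 fraction. Choosing by H3K4me3 instead gave the same order. Of 311 B6-allele hotspots with over 75% of H3K4me3 reads from B6, 255 had a DMC1 fraction, and its median was 96.4% beside 86.8% for H3K4me3, with DMC1 the larger at 219 of them. Of the 255, 240 (94.1%, interval 90.5 to 96.4%) were cut on B6, 13 were matched and 2 were cut on SPRT. With 50 to 75% of H3K4me3 reads from B6, 85 of 612 (13.9%) were cut on B6, with 25 to 50% 3 of 760 (0.395%), and under 25% 0 of 914 (upper limit 0.419%). The 56 hotspots over 75% by H3K4me3 that lack a DMC1 fraction are not among the 328, and had a median DMC1 signal of 17.3.

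**Figure D2:**
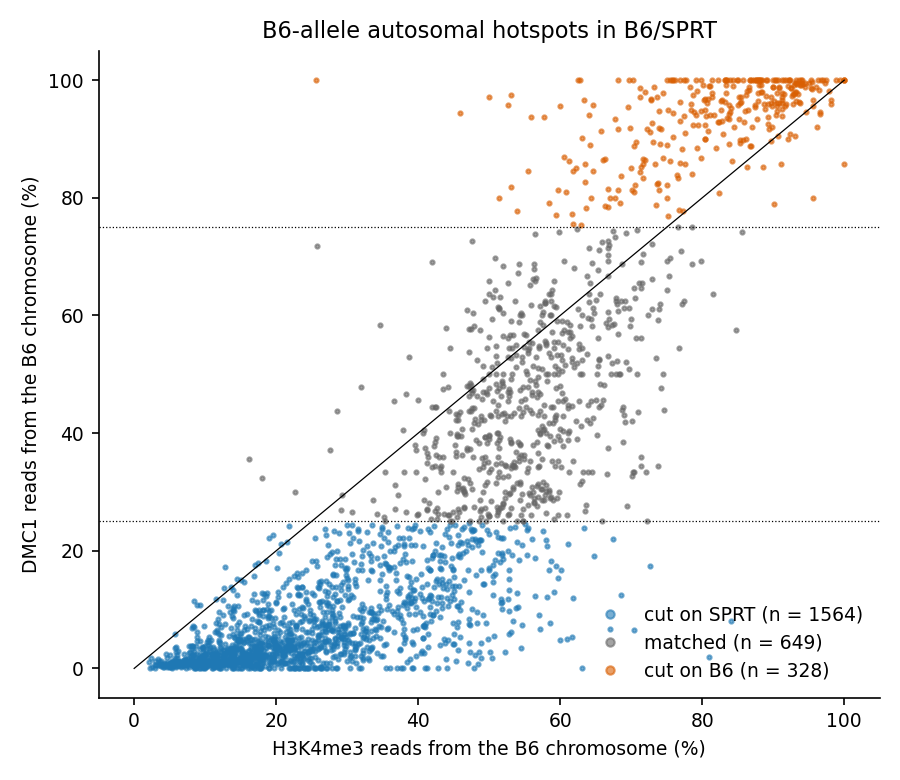
DMC1 reads from the B6 chromosome (%) against H3K4me3 reads from the B6 chromosome (%) for the 2541 B6-allele autosomal hotspots of B6/SPRT with both, 1 point each. Dotted lines mark 25 and 75% by DMC1 and the solid line equal fractions: the 328 hotspots cut on B6 sit at the upper right, 307 of them above the line.

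The extremes by H3K4me3, among hotspots with at least 20 SNP-carrying reads, were as follows. Every read came from B6 at a hotspot within *Cwc22*, a splicing factor gene (22 reads, interval 85.1 to 100%), at one 237 kb from the nearest gene on chromosome 4 at position 97153617 (44 reads), and at one within the immunoglobulin kappa locus *Igk* (160 reads, interval 97.7 to 100%). The *Igk* hotspot, at position 70146751 of chromosome 6, lay 628 kb from the nearest other hotspot and was not called in STUS/B6. Its input coverage was 8 reads, against a median of 18 over the 328. At *Cwc22* the 22 SNP-carrying reads stood beside a ChIP coverage of 141. The intervals do not cover such differences in coverage. The lowest fraction was within *Cfap61*, a gene of sperm flagella and cilia, at position 146021489 of chromosome 2. There 100% of DMC1 reads came from B6 but 25.6% of 43 H3K4me3 reads did (interval 14.9 to 40.2%, adjusted p = 0.00277 by the exact binomial test), the only hotspot of the 328 called in that direction against 50%. This call was lost with Bonferroni adjustment and with the reads divided by 2. The next lowest, within Gm21221 with 45.8% of 72 reads and within the angiotensinogen gene *Agt* with 51.4% of 140, were not called in either direction (adjusted p = 0.599 and 0.831 by the same exact test). Both had DMC1 signals near the lowest listed, at 8.09 and 7.88.

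The 10 strongest hotspots cut on B6 had DMC1 signals of 142 to 360. The strongest lay on chromosome 9 at position 123351619, 15.3 kb from *Lars2*, which encodes the mitochondrial leucyl-tRNA synthetase. It had 92.1% of DMC1 and 96.2% of H3K4me3 reads from B6. The next, at position 77925528 of chromosome 2 within *Cwc22*, had a signal of 250 and 100% from B6 by both measures. Signals of 174 and 170 followed at 1.79 kb from the pseudogene Gm11405 on chromosome 4 and within 4930505A04Rik on chromosome 11, with 98.4 and 100% of DMC1 reads from B6. On chromosome 8, hotspots within *Fto*, an RNA demethylase gene, and within *Dlc1* had signals of 161 and 160.8, with 99.5 and 91.1% from B6. The rest lay within Gm30234 on chromosome 19, within 1700003P14Rik on chromosome 13, far from any gene on chromosome 2 at position 98108492 and within the serine protease gene *Tmprss7* on chromosome 16. H3K4me3 at the 10 came from B6 by 75.1% (*Tmprss7*) to 100%, and all 10 were called. Of these 10 positions, 5 were matched in STUS/B6, 2 were cut on STUS, 1 was cut on B6, 1 had no fraction and 1 was not called.

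The same positions were then followed in STUS/B6, where B6 PRDM9 meets another homolog. A hotspot was called there within 500 bp of 279 of the 328 centers (85.1%, interval 80.8 to 88.5%), against 92.0% of matched hotspots and 81.6% of those cut on SPRT. The B6 allele was assigned at 266 of the 279, and no allele at 13. The 49 positions without a call had a median DMC1 signal of 16.5 and a median H3K4me3 fraction of 76.9% in B6/SPRT.

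Most of these positions were cut on both homologs in STUS/B6. Of the 259 with a fraction there, 161 (62.2%, interval 56.1 to 67.9%) were matched, 84 (32.4%, interval 27.0 to 38.4%) were again cut on B6, and 14 (5.41%, interval 3.25 to 8.87%) were cut on the STUS chromosome. The median was 58.6% from B6. Between 40 and 60% lay 95 of the positions, and above 95% lay 49. Positions matched in B6/SPRT were matched in STUS/B6 at 75.7% of 551 and cut on B6 at 12.0% (interval 9.53 to 15.0%). Those cut on SPRT were cut on the STUS chromosome at 85.5% of 1251 and on B6 at 2.96% (interval 2.15 to 4.05%). Read in the other direction, of 645 autosomal B6-allele hotspots cut on B6 in STUS/B6, 234 were called in B6/SPRT and 178 had a fraction there, of which 79 (44.4%, interval 37.3 to 51.7%) were cut on B6. With 1 library per hybrid, a difference between mice or libraries cannot be told apart from one between crosses.

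**Figure D3:**
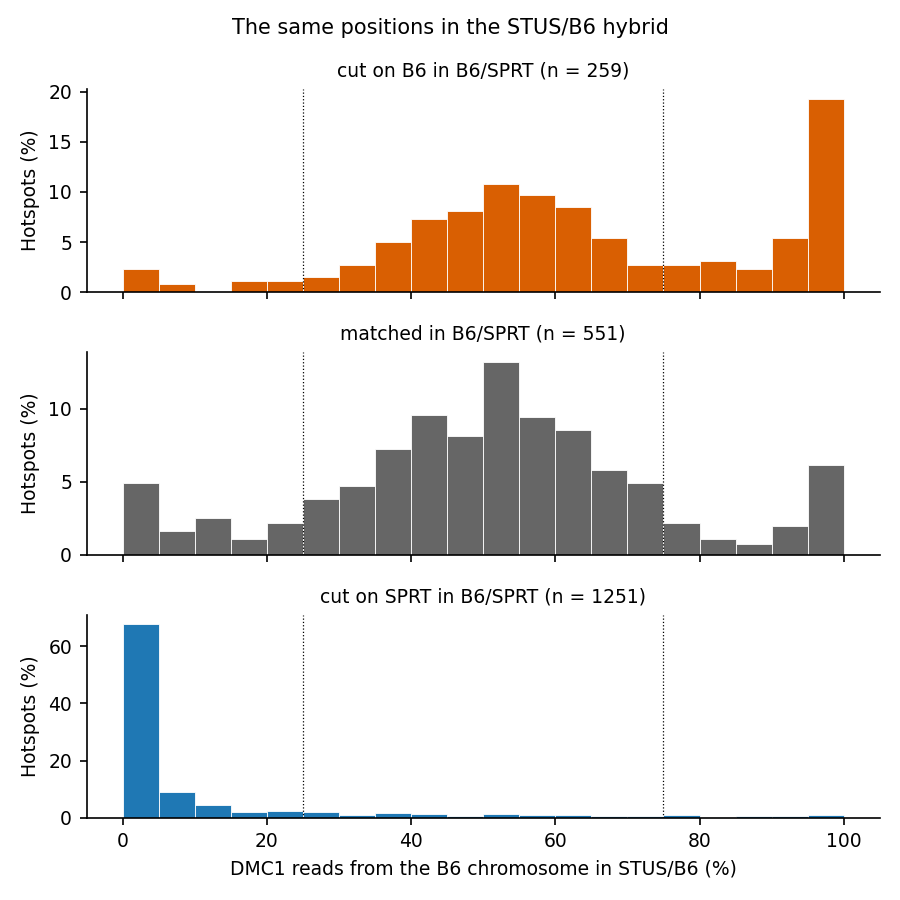
DMC1 reads from the B6 chromosome in STUS/B6 (%, bins of 5 points) at positions that were cut on B6 (top, n = 259), matched (middle, n = 551) or cut on SPRT (bottom, n = 1251) in B6/SPRT. Bars are the percentage of the positions in that panel and dotted lines mark 25 and 75%. The top panel holds a broad group around the middle and a second one above 95%.

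The H3K4me3 fractions in B6/SPRT were similar whichever homolog was cut in STUS/B6. The median from B6 was 83.7% at the 84 cut on B6 in both hybrids, 85.0% at the 161 matched in STUS/B6 and 88.5% at the 14 cut on STUS, and the DMC1 fractions were 95.5, 95.9 and 95.6%. DMC1 signal differed more: in B6/SPRT the medians were 17.6, 24.0 and 26.4, and in STUS/B6 61.2, 126 and 199.

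Set against other B6-allele hotspots, those cut on B6 ranked higher in STUS/B6 than in B6/SPRT. Among the 279 called in both, the median DMC1 signal stood at the 27.6th percentile of autosomal B6-allele hotspots in B6/SPRT and at the 65.4th in STUS/B6. Over all 3455 B6-allele hotspots of B6/SPRT that were called in STUS/B6, the median percentile there was 68.2. The hotspots cut on B6 thus stayed below the typical shared hotspot. For matched hotspots the percentiles were 32.7 and 58.2, and for those cut on SPRT 63.2 and 73.3. As a raw ratio of STUS/B6 to B6/SPRT the signal had medians of 3.80, 2.58 and 2.02 in the same order. How the signal is scaled to depth is not stated, so at most the order of these ratios can be read. That order is the reverse of the B6/SPRT signals in the denominator (medians 20.4, 23.9 and 63.0 over each whole class). Only hotspots called in both hybrids enter the ratios. How far the order depends on the starting signal or on that selection was not tested. Taking the B6 chromosome alone (DMC1 signal times the fraction from B6), the median ratio was 2.60 for hotspots cut on B6, 2.81 for matched ones and 1.48 for those cut on SPRT. It was 3.37 at the 84 cut on B6 in both hybrids and 2.21 at the 161 matched in STUS/B6, whose whole signal had ratios of 3.47 and 4.02. Of the groups listed, the 14 cut on STUS had the lowest ratio for the B6 chromosome, 0.483, and the highest for the whole signal, 10.7. The fractions that sorted these groups also enter the ratio for the B6 chromosome. Its distance from the whole-signal ratio therefore follows from the sorting and is not a separate result.

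**Figure D4:**
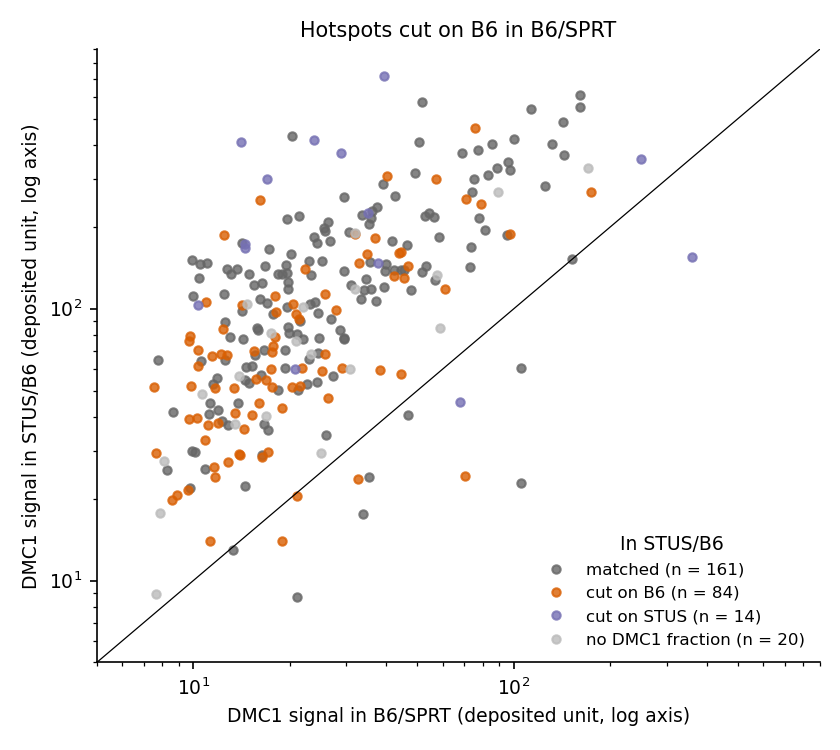
DMC1 signal in STUS/B6 against B6/SPRT (deposited units, both axes log) at the 279 hotspots cut on B6 in B6/SPRT and called in both, coloured by class in STUS/B6. The solid line marks equal deposited values, and 266 of the 279 points lie above it. Because the scaling to depth is not stated, a place above the line does not by itself mean a stronger hotspot.

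Among the 84 hotspots cut on B6 in both hybrids, the strongest in B6/SPRT was that near Gm11405, with 98.4% of DMC1 reads from B6 in B6/SPRT and 100% in STUS/B6. Within *Dnajc11*, a mitochondrial chaperone gene, the fractions were 100 and 90.2%, and at Gm46165 99.5 and 99.8%. At 16.7 kb from *Aggf1*, which encodes an angiogenic factor, they were 98.9 and 98.6%, and at 39.6 kb from the splicing regulator gene *Rbfox1* 97.6 and 100%. H3K4me3 from B6 was 86.6 to 97.3% at these 5 hotspots.

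At 14 positions, joined by centers within 500 bp, the cut homolog was B6 in one hybrid and STUS in the other. Whether both centers mark the same binding site was not tested. The lowest fraction in STUS/B6 was 0.588%, at position 72732476 of chromosome 3, where B6/SPRT had 96% with 92.8% of H3K4me3 from B6. Its DMC1 signal was 17.0 in B6/SPRT and 301 in STUS/B6. Within *Wdr70* the B6 fraction was 97.5% against 1.25%, and the signal 39.2 against 717. At 0.091 kb from Gm34589 the fractions were 78.9 and 1.33%, with signals of 14.1 and 411. The hotspots within *Ehd2*, a gene of caveolae, and near *Lars2* also turned, from 81.0 to 1.41% and from 92.1 to 3.98%, and at these 2 of the 14 the signal in STUS/B6 was the lower one (45.4 against 68.0, and 155 against 360).

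With the B6 allele replaced, few of the 328 positions had a hotspot. A call within 500 bp was found at 5 of them in Hum/SPRT (1.52%, interval 0.653 to 3.52%), all assigned to the humanized allele, and at 4 in CAST/SPRT (1.22%, interval 0.475 to 3.09%), all assigned to CAST. In STUS/Hum it was 4 (1.22%, interval 0.475 to 3.09%), with 2 assigned to the humanized allele, 1 to STUS and 1 to no allele. Of all 4122 B6-allele positions, 0.509% were found with the humanized allele beside SPRT, 0.437% with CAST and 0.728% in STUS/Hum. The Gm30234 hotspot, the seventh strongest, was one of the 5, with a signal of 271 and 97.0% from B6 in Hum/SPRT beside 154 and 97.1% in B6/SPRT. Of the 5 positions in Hum/SPRT, 4 had a fraction, and 3 of these were over 75% from B6. In CAST/SPRT 3 had a fraction and all 3 were. Among all B6-allele positions found with a fraction, 6 of 13 in Hum/SPRT and 4 of 10 in CAST/SPRT were over 75% from B6. These counts are too small to compare.

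The hotspots cut on B6 were spread over the 19 autosomes, with 5 to 26 on each. Their share of B6-allele hotspots with a fraction was 6.48% (7 of 108) on chromosome 17, which carries *Prdm9*, and 16.4% (20 of 122) on chromosome 6. The interval of each autosome included the overall 12.9% on 18 of 19, with chromosome 17 the exception (interval 3.17 to 12.8%). On chromosome 19 the share was nearly as low, at 6.58% (5 of 76, interval 2.84 to 14.5%). The 19 intervals were not adjusted for their number. The median H3K4me3 fraction from B6 was between 72.5 and 90.5% on single autosomes. A protein-coding gene held the center of 173 of the 328 (52.7%), of 63.3% of matched hotspots, of 57.2% of those cut on SPRT and of 53.4% of all autosomal hotspots. Only 4 of the 317 for which a gene start was given lay within 1 kb of one (1.26%), against 1.85% of all autosomal hotspots. The starts given did not cover every gene, so both shares may be too low. A hotspot within *Impa1*, for example, lay 974 kb from the nearest start given. The distance to the nearest other hotspot had a median of 41.4 kb and was never under 2.03 kb.

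**Figure D5:**
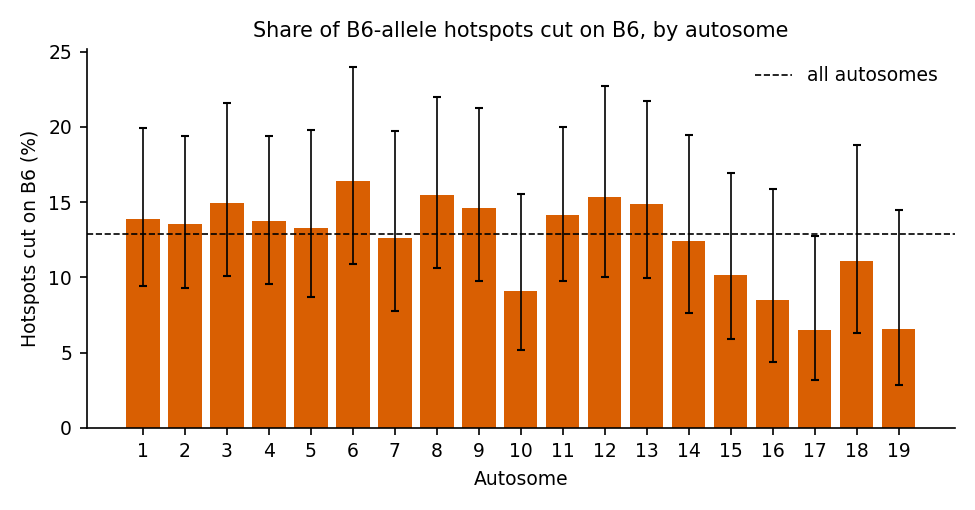
Share of B6-allele hotspots with a DMC1 fraction that were cut on B6 (%), for each autosome, with 95% Wilson intervals as error bars. The dashed line is the share over all autosomes, 12.9%, which lies inside the interval of 18 of the 19.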

How the data were processed

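Hotspot tables of 5 hybrid genotypes were used. Per the labels, reads were aligned with BWA to mm10. The authors selected reads from single-stranded DNA, called hotspots in each DMC1 library, attributed them to a PRDM9 allele from mice with other alleles, and split reads between homologs at SNPs. The deposited DMC1 signal comes from their peak caller, with no stated scaling to depth. The deposited fraction of DMC1 reads from B6 has no read number. The H3K4me3 columns that the authors deposited are coverage counts of ChIP and of input, an enrichment ratio over input of unstated formula, and a fraction from B6 with its number of SNP-carrying reads, taken here as pooled over samples. Summed over autosomal hotspots of B6/SPRT, ChIP coverage was 3136355 and input coverage 355847. Tables were matched to genotypes by the alleles they name and their hotspot totals. The tables hold 13 further columns (the authors' p-values and a mark of sharing), which were not used.

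Autosomal rows of B6/SPRT with the B6 allele and a B6 fraction above 0.75 were kept. The hotspots and comparisons were chosen with earlier results of these data known. Reads from B6 (fraction times reads, whole at 100% of hotspots within 1e-06) were tested against 0.5 by an exact binomial test with Benjamini-Hochberg adjustment at 0.05 over 18432 autosomal hotspots. The 90 without a fraction were left out. Centers within 500 bp were taken as the same position. Genes and promoters are RefSeq's for GRCm38.p6, and gene starts near 11 hotspots were not used here. Hotspots were named by rule: the 10 with the largest DMC1 signal, the 3 nearest the limit on either side, the 3 highest and 3 lowest by H3K4me3 (at least 20 reads), the 5 strongest also cut on B6 in STUS/B6, and the 5 lowest there. One hotspot that the rule names is not reported here. The Gm36841 hotspot and the example in Hum/SPRT were picked after their values were seen. Alternatives covered the null share, read minimum, adjustment, limit, window and weighting. The test was run in scipy 1.17.1 and checked on simulated data, with tables read in pandas 2.3.3 on numpy 2.4.6 and figures drawn in matplotlib 3.10.9 (Python 3.11.15).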

Additional observations from a re-analysis of the deposited data

Results flagged for a closer look

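The 5 hotspots with the lowest B6 fraction in STUS/B6 are listed because the cut homolog was opposite in the 2 hybrids, each with 1 library, and this difference was not tested. Their B6 fractions in STUS/B6 were 0.588% on chromosome 3 at position 72732476, 1.25% within *Wdr70*, 1.33% near Gm34589, 1.41% within *Ehd2* and 3.98% near *Lars2*. The centers compared lay 290, 7, 205, 68 and 13 bp apart in that order, so they need not be the same binding site. In B6/SPRT the DMC1 fractions at these positions, chosen to be over 75%, were 96, 97.5, 78.9, 81.0 and 92.1%, and H3K4me3 from B6 was 92.8, 86.1, 90.2, 70.5 and 96.2%.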

How the results depend on the processing

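Of 41 alternatives over 9 results, 5 (no hotspot of another allele within 2 kb) removed none of the 328 hotspots and so tested nothing. Of the other 36, 23 left the value within its interval or the count within 1.5 times, and 13 moved it. Counts were compared as such even where an alternative kept fewer hotspots. The 64 calls among 65 stronger hotspots (98.5%) were therefore tallied as moved although the share was similar. Leaving out a sample was not possible, since the tables give 1 pooled value per genotype. No paired analysis was possible because the columns carry no replicate number. The call of more H3K4me3 reads from B6 was made at 315 of 328 hotspots (96.0%, with 53.7% of all autosomal hotspots). It was made at 247 (75.3%, with 32.9%) against the KO share of 65.4%, and at 259 (79.0%, with 7371 of all 18432) with Bonferroni adjustment. It was made at 315 of 327 with at least 20 reads, at 235 of 242 above a limit of 90%, and at 64 of 65 with a DMC1 signal above the median of the B6 allele. Chosen after seeing the data, a null share of 59.9% (the median of all autosomal hotspots) gave 278 (84.8%, with 38.9%) and dividing reads by 2 gave 300 (91.5%, with 47.8%). The count with fewer reads from B6 (1) was 9 against the KO share, 4 against that of all hotspots, and 0 with Bonferroni adjustment, among stronger hotspots and with reads divided by 2. A limit of 90% moved the median H3K4me3 fraction to 86.8% and the share of hotspots cut on B6 to 9.52%. That share was 5.57% weighted by DMC1 signal and 7.96% with hotspots lacking a fraction in the denominator. Median enrichment was 5.13 as ChIP over input coverage (each plus 1) and 7.34 among stronger hotspots. With centers within 200 bp, 70.1% of the hotspots were found in STUS/B6. The causes were not tested beyond what each choice changes by construction. Unknown depth limits the DMC1 fractions of weak hotspots.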
